A study of Mus musculus with 19 samples.

Results

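The genes described here are 9 mouse enzymes of amino acid breakdown, chosen by name: Tat, Got1, Got2, Sds, Gpt, Gpt2, Oat, Tdo2 and Hpd. They belong to 13549 genes counted in embryo livers and 17606 gene identifiers counted in tumours. Of the 9 genes, 8 were measured in the embryos and 8 in the tumours, and 7 in both. Under these symbols, Tdo2 was not found among the genes of the embryo counts, nor Sds among those of the tumour values, so neither could be analysed there. All 8 genes passed the filter on low values in each experiment.

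The series built mouse models of fibrolamellar hepatocellular carcinoma, in which the start of DNAJB1 is fused to PRKACA, the catalytic subunit of protein kinase A. The first experiment compared livers of control embryos (n = 5, libraries 1 to 5) with livers whose genotype label reads DNAJ1B-PKA_Overexpression (n = 4, libraries 6 to 9), all at E18.5. In the transgenic mice a DNAJB1-PRKACA-GFP cDNA stood in the Rosa26 locus behind a stop cassette, which Alb-Cre, active in liver from mid-gestation, removed. Which of these alleles the control embryos carried is not given in the sources used here, nor is the strain. The second experiment used FL8, a single cell line of this model, grown from gelatin capsules under the flank skin of NSG mice, which lack adaptive immunity. Once tumours averaged 75 mm3, mice received palbociclib, a CDK4/6 inhibitor that holds cells before DNA replication, by oral gavage (75 mg/kg) on 3 consecutive days followed by 4 days without it (n = 5). The other mice received the methocel vehicle (n = 5). The labels do not say which embryos shared a litter or whether each tumour came from its own mouse, so p-values measure the spread between these samples.

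Transaminases move an amino group from an amino acid to a keto acid, with pyridoxal phosphate as the cofactor, and dehydratases release it as ammonia. The remaining carbon skeleton can be burned or, in the liver, turned into glucose. Several of these enzymes are known to be scarce in the fetal liver and to be switched on around birth by glucocorticoids, by glucagon and by cAMP, the messenger that activates protein kinase A. The aspartate and alanine aminotransferases each exist as a cytosolic enzyme (Got1, Gpt) and a mitochondrial enzyme (Got2, Gpt2) encoded by separate genes. Tdo2 and Hpd, although grouped with the transaminases here, are dioxygenases that open the breakdown of tryptophan and continue that of tyrosine.

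Depth ranged from 7.66 to 23.1 M (1 M is 1000000 counts) in control and from 13.5 to 45.6 M in fusion embryos, and from 2.96 to 33.9 M in vehicle and 24.9 to 43.1 M in palbociclib tumours. Prkaca, the gene of the fusion's kinase part, was at 36.3 to 50.5 CPM (counts scaled to a library total of 1000000) in the controls and at 52.0 to 114 CPM in the fusion embryos, without overlap. Reads of the native gene and of the inserted cDNA cannot be told apart in this count. In 4 embryo libraries, control 1 and 2 and fusion 8 and 9, the share of counts from ribosomal protein genes was 7.76 to 8.41%, against 5.38 to 6.72% in the other 5. Mitochondrial genes took 46.6% of vehicle tumour 1 and 1.24 to 6.47% of the other tumours, and vehicle 5 was the library of 2.96 M counts. The hepatocyte markers were present in every library. Their summed level over 11 genes was 134863 to 186960 CPM in control embryos, 97294 to 158704 CPM in fusion embryos, 43575 to 123293 CPM in vehicle tumours and 90973 to 136500 CPM in palbociclib tumours.

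The promoters of 4 genes are shown because Tat and Got1 rose together in the fusion embryos and Oat rose less, while Got2, the mitochondrial counterpart of Got1, did not pass the test. Each line holds the 250 bases before the RefSeq transcription start on the gene's own strand (GRCm38.p6), and capitals mark CpG pairs. The windows are chr8:109990186-109990435 on the plus strand for Tat, and, on the minus strand, chr19:43524606-43524855 for Got1, chr7:132576399-132576648 for Oat and chr8:95888402-95888651 for Got2.
Tat: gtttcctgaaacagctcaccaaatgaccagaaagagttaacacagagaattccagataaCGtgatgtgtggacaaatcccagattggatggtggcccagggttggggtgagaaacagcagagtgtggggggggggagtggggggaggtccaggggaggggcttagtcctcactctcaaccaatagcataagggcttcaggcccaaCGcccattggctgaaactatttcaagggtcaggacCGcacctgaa
Got1: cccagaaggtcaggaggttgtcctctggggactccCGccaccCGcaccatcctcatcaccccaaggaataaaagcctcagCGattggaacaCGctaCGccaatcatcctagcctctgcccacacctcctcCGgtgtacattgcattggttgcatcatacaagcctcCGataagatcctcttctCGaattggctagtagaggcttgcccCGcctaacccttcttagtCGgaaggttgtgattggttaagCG
Oat: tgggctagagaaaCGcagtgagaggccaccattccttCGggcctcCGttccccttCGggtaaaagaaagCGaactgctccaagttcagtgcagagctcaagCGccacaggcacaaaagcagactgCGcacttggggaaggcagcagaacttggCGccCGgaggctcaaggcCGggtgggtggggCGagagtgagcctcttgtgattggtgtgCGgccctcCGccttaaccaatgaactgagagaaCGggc
Got2: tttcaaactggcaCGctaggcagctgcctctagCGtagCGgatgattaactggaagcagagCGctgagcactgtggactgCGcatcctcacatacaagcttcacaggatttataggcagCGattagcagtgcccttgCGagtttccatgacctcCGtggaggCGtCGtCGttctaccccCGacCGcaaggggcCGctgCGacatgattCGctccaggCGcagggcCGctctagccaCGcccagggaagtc

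The Tat window held 3 CpG pairs, the Got1 window 11, the Oat window 14 and the Got2 window 19. The median over all 32851 promoter windows was 6, with quartiles of 2 and 16. RefSeq windows of 7 of the 9 genes were searched on both strands for the full cAMP response element TGACGTCA, its core TGACG, which the full element contains, the glucocorticoid receptor core AGAACA and the TATA box TATAAA. None of the 7 windows (Tat, Got1, Got2, Gpt2, Oat, Tdo2, Hpd) held either form of the cAMP element or the glucocorticoid receptor core, which occur in 1.55%, 17.8% and 16.1% of all windows. TATAAA, found in 12.4% of all windows, occurred 229 bases before the start of Tdo2 and, on the other strand, 142 bases before that of Got2. These distances hold for the RefSeq starts. By the GENCODE coordinates given below, which begin both genes further upstream, the matches lie inside the genes. The windows of Tat, Got1 and Oat, the 3 genes among the 7 that rose in the fusion embryos, thus shared none of these letters. Sds and Gpt were not searched.

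The first comparison asked how expression of the fusion kinase changed the fetal liver. Of the 8 genes measured, 5 were higher in the fusion embryos (Tat, Sds, Got1, Gpt and Oat), 1 was lower (Gpt2) and 2 (Got2 and Hpd) did not pass the test. The test was edgeR's quasi-likelihood test, with Benjamini-Hochberg adjustment over 13316 genes and a threshold of 0.05. Over all genes tested 12.8% passed it, 5.99% as higher and 6.81% as lower. The median log2 fold change of the 8 genes was 1.90, against -0.01 over all genes tested. In 6 of the 8 the groups did not overlap, a pattern seen in 16.5% of all genes. The genes were chosen with earlier results of these data known, so these contrasts with all genes are no test of the set. Ranked by the size of the rise among the 13316 genes, Tat stood at 10, Sds at 11, Got1 at 14, Gpt at 35 and Oat at 161. Whether liver cells made more of a transcript or more cells made it cannot be told apart in bulk RNA.

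**Figure D1:**
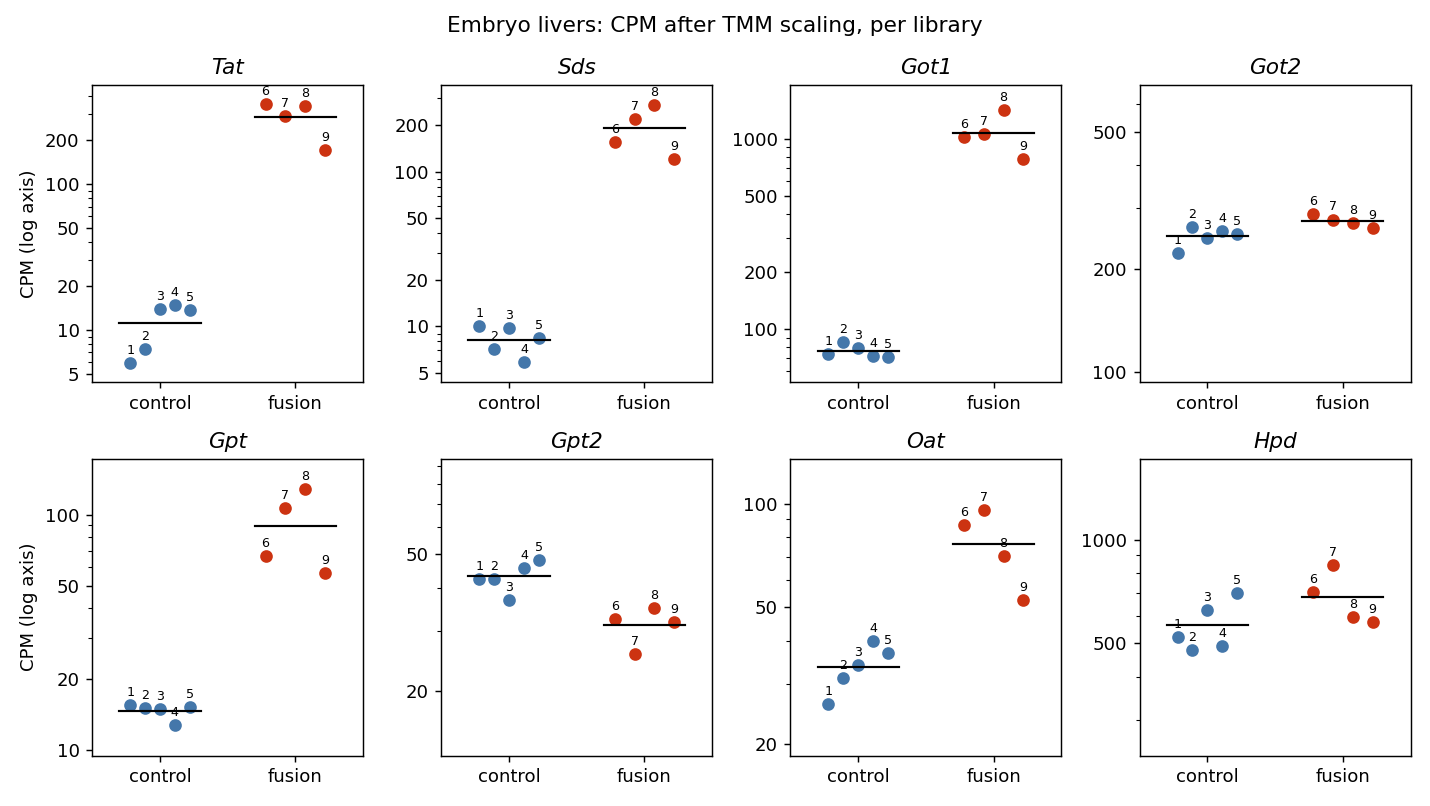
Level of each measured gene in the 5 control and 4 fusion embryo livers, in CPM after TMM scaling on a log axis. Each point is 1 library with its number, and the black line is the group mean. Tat, Sds, Got1, Gpt and Oat lie higher in every fusion library than in any control, Gpt2 lies lower, and Got2 and Hpd overlap.

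Tat encodes tyrosine aminotransferase, the first and rate-limiting step of tyrosine breakdown. It lies at chr8:109990437-109999803 on the plus strand of mm10. Its levels in control 1 to 5 were 5.94, 7.39, 13.8, 14.8 and 13.6 CPM, and in fusion 6 to 9 they were 353, 292, 340 and 172 CPM. The groups were far apart, with fusion 9 the lowest of its group and control 1 and 2 the lowest of theirs. The mean rose from 11.1 ± 4.09 CPM (SD, n = 5) to 289 ± 82.3 CPM (SD, n = 4), 25.7-fold in the fit (log2 4.68 ± 0.32, SE; adjusted p = 1.18e-05 by edgeR). Control 1 and 2 and fusion 9 are among the libraries with the higher ribosomal protein share. Within that set (control 1 and 2, fusion 8 and 9) the log2 fold change was 5.30, and within the remaining 5 libraries it was 4.52.

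Hpd encodes 4-hydroxyphenylpyruvate dioxygenase, which takes the product of Tat to the next step (chr5:123171807-123182727, minus strand). It was at 521, 479, 624, 492 and 700 CPM in control 1 to 5 and at 705, 845, 596 and 575 CPM in fusion 6 to 9. The groups overlapped, and the log2 fold change of 0.27 ± 0.17 (SE) did not pass the test (edgeR, adjusted p = 0.314). The transcript of the first enzyme of the tyrosine route was thus 25.7-fold higher, while the value for that of the next enzyme was 1.21-fold. In the list of the other phenylalanine and tyrosine enzymes, 2 of 6 were higher and 0 lower, with a median log2 fold change of 0.37. Among them Hgd, which opens the ring of homogentisate, rose by 0.56 ± 0.13 on the log2 scale (SE; edgeR, adjusted p = 0.0195), a call that was lost without fusion 8.

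Sds encodes serine dehydratase, which turns serine into pyruvate and ammonia in the hepatocyte cytosol (chr5:120476526-120483932, plus strand). It was at 10.0, 7.11, 9.78, 5.92 and 8.38 CPM in control 1 to 5 and at 156, 220, 269 and 120 CPM in fusion 6 to 9. Every fusion library stood far above every control, and fusion 9 was again the lowest of its group. Sds rose 23.1-fold (log2 4.53 ± 0.26, SE; adjusted p = 5.59e-06 by edgeR), from 8.25 ± 1.76 CPM (SD, n = 5) to 191 ± 66.4 CPM (SD, n = 4). Sds shares 360 exon bases, 21.3% of its exon length, with Plbd2 on the opposite strand and 141 with the antisense gene Gm15690. Whether counting used strand is not given in the sources used here. Plbd2 itself was at 33.6 to 41.6 CPM in the controls and 23.1 to 33.4 CPM in the fusion embryos, so its value moved the other way (log2 fold change -0.39 ± 0.13, SE; edgeR, adjusted p = 0.0657).

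Sdsl, a relative of Sds that also acts on serine and threonine, was higher as well. It stood at 28.4, 33.9, 22.4, 16.2 and 17.2 CPM in control 1 to 5 and at 62.5, 67.5, 101 and 64.1 CPM in fusion 6 to 9 (log2 fold change 1.66 ± 0.23, SE; edgeR, adjusted p = 0.00148). In the list of serine, glycine and threonine enzymes 4 of 10 were higher and 1 was lower, with a median log2 fold change of 0.16. Agxt, which uses alanine to turn glyoxylate into glycine, rose 4.14-fold, from 147 ± 24.3 CPM (SD, n = 5) to 611 ± 173 CPM (SD, n = 4; edgeR, adjusted p = 1.49e-04). Gldc, the decarboxylase of the glycine cleavage system, rose by 1.02 ± 0.21 on the log2 scale (SE; edgeR, adjusted p = 0.0104). The gene that fell was Agxt2, a mitochondrial aminotransferase (log2 fold change -0.39 ± 0.10, SE; edgeR, adjusted p = 0.0307), and its call was lost in 8 of the 9 fits that each left out 1 embryo.

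Got1 encodes cytosolic aspartate aminotransferase, which exchanges amino groups between aspartate and glutamate (chr19:43499752-43524605, minus strand). Its levels were 73.6, 85.7, 78.9, 71.8 and 71.0 CPM in control 1 to 5 and 1016, 1051, 1418 and 779 CPM in fusion 6 to 9. The controls lay close together and every fusion library was far above them. The mean rose from 76.2 ± 6.17 CPM (SD, n = 5) to 1066 ± 264 CPM (SD, n = 4), with log2 fold change 3.81 ± 0.18 (SE; edgeR, adjusted p = 2.27e-06). Of the 8 genes Got1 had the smallest adjusted p.

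Got2 encodes the mitochondrial enzyme for the same reaction (chr8:95864134-95888547, minus strand). It was at 222, 265, 246, 257 and 253 CPM in control 1 to 5 and at 289, 278, 272 and 262 CPM in fusion 6 to 9. The ranges met at their edges, fusion 9 lying below control 2. The log2 fold change was 0.15 ± 0.11 (SE) and did not pass the test (edgeR, adjusted p = 0.412). Got2 shares 434 exon bases with the gene model Gm45760 on the opposite strand.

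The ratio of Got1 to Got2 within a library needs no scaling between libraries. Its log2 value was -1.59, -1.63, -1.64, -1.84 and -1.83 in control 1 to 5 and 1.82, 1.92, 2.38 and 1.57 in fusion 6 to 9. In counts, without regard to length, Got1 was at 0.279 to 0.332 times Got2 in the controls and at 2.97 to 5.22 times Got2 in the fusion embryos. The mean changed from -1.71 ± 0.12 (SD, n = 5) to 1.92 ± 0.34 (SD, n = 4), a difference of 3.63. A two-sided exact permutation test gave p = 0.0159, the lowest value possible with 5 against 4 libraries, and 0.0317 after adjustment over 4 ratio tests. Per kilobase of exon the levels were 30.0 ± 2.43 CPM (SD, n = 5) for Got1 and 51.5 ± 3.42 for Got2 in the controls, and 420 ± 104 (SD, n = 4) and 57.0 ± 2.30 in the fusion embryos.

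Gpt encodes cytosolic alanine aminotransferase, which makes pyruvate from alanine (chr15:76695716-76699686, plus strand). It was at 15.5, 15.1, 15.0, 12.8 and 15.2 CPM in control 1 to 5 and at 66.7, 107, 128 and 56.3 CPM in fusion 6 to 9. All fusion libraries were above all controls, although fusion 8 was 2.28 times as high as fusion 9. Gpt rose 6.09-fold (log2 2.61 ± 0.22, SE; adjusted p = 7.78e-05 by edgeR), from 14.7 ± 1.08 CPM (SD, n = 5) to 89.6 ± 33.8 CPM (SD, n = 4).

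Gpt2, the mitochondrial alanine aminotransferase (chr8:85492576-85527560, plus strand), went the other way. It was at 42.5, 42.5, 36.9, 45.7 and 48.1 CPM in control 1 to 5 and at 32.4, 25.6, 35.0 and 31.7 CPM in fusion 6 to 9. Every fusion library was below every control, by a small margin between fusion 8 and control 3. Its log2 fold change was -0.47 ± 0.12 with an adjusted p of 0.0285 (SE; edgeR). This call was lost in 8 of 16 alternative fits, among them those without control 1, control 4, control 5, fusion 6, fusion 7 or fusion 9, where the adjusted p was 0.0504 to 0.0820.

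The log2 ratio of Gpt to Gpt2 was -1.46, -1.50, -1.29, -1.83 and -1.66 in control 1 to 5 and 1.04, 2.07, 1.87 and 0.83 in fusion 6 to 9. It changed from -1.55 ± 0.21 (SD, n = 5) to 1.45 ± 0.61 (SD, n = 4), a difference of 3.00 (p = 0.0159 in the same exact test, 0.0317 after adjustment), and the groups did not overlap. Per kilobase of exon, Gpt was at 5.01 ± 0.366 CPM (SD, n = 5) and Gpt2 at 7.65 ± 0.750 in the controls, against 30.5 ± 11.5 (SD, n = 4) and 5.53 ± 0.709 in the fusion embryos. For both aminotransferases the ranges per kilobase of the isoenzymes did not overlap in either group: the mitochondrial one was the higher in controls and the cytosolic one in fusion embryos. The lengths are merged exons (2941 bases for Gpt, 5643 for Gpt2). Lengths of single transcripts were not tried, and the order per kilobase in the controls could differ with them.

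**Figure D2:**
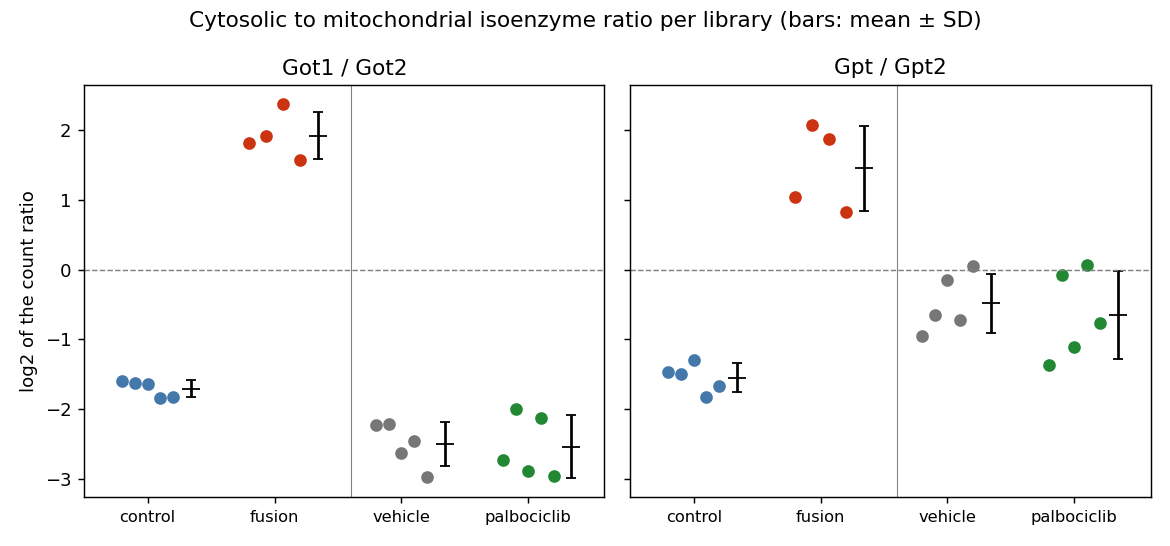
Log2 ratio of the cytosolic to the mitochondrial isoenzyme in every library, from counts in embryos and from CPM in tumours, with mean ± SD beside each group and a dashed line where both are equal. Fusion embryos lie above the line for both pairs and controls below it, while vehicle and palbociclib tumours overlap. The grey vertical line separates experiments whose tables were normalized separately.

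Oat encodes ornithine aminotransferase, a mitochondrial enzyme that links ornithine to glutamate and proline (chr7:132557478-132576398, minus strand). It was at 26.1, 31.2, 33.9, 39.8 and 36.7 CPM in control 1 to 5 and at 86.8, 95.9, 70.4 and 52.4 CPM in fusion 6 to 9. The groups did not overlap, with control 4 and fusion 9 nearest to each other. Oat rose 2.27-fold (log2 1.19 ± 0.18, SE; adjusted p = 0.00233 by edgeR), from 33.5 ± 5.25 CPM (SD, n = 5) to 76.4 ± 19.1 CPM (SD, n = 4). Location in the cell did not sort these enzymes completely: mitochondrial Oat rose, Got2 did not pass the test and Gpt2 was lower.

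Levels differed among the 4 fusion embryos. Fusion 9 was the lowest of its group for 7 of the 8 genes and fusion 7 for Gpt2. Xist, which served as a covariate in an alternative fit, also set fusion 9 apart. Its CPM value there was 0.534, against 263, 246 and 162 for fusion 6, 7 and 8. Controls 1 and 2 had high Xist (448 and 391 CPM), whereas controls 3 to 5 had only 0.242 to 0.448 CPM. High and low Xist were thus not balanced between the groups. Whether this had a part in the lower levels of fusion 9 was not tested. The highest fusion library was 2.05 times the lowest for Tat, 2.25 times for Sds, 1.82 times for Got1, 2.28 times for Gpt and 1.83 times for Oat, but 1.10 times for Got2. The relative spread within the group (SD over mean) was 24.8 to 37.7% for the 5 genes that rose, 18.2% for Hpd, 12.8% for Gpt2 and 4.03% for Got2. In the controls it was 36.9% for Tat, above the 28.5% of the fusion group, 21.3% for Sds, 15.6% for Oat, 8.10% for Got1 and 7.30% for Gpt. Prkaca was at 114, 72.4, 53.8 and 52.0 CPM in fusion 6 to 9, so fusion 9 was the lowest there too, but fusion 8, close to it in Prkaca, was the highest for Got1, Sds and Gpt.

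Per kilobase of exon, the order of the genes in the controls was Hpd at 225 to 329 CPM, Got2 at 46.0 to 55.0, Got1 at 27.9 to 33.8, Oat at 11.1 to 16.9 and Gpt2 at 6.53 to 8.53. Gpt (4.36 to 5.26), Sds (3.49 to 5.93) and Tat (2.47 to 6.13) came last and overlapped one another. In the fusion embryos Got1 (307 to 559 CPM per kilobase) and Hpd (270 to 397) overlapped at the top. Tat (71.6 to 147) and Sds (70.7 to 159) came next and overlapped, followed by Got2 (54.3 to 59.8). Oat (22.2 to 40.6) and Gpt (19.2 to 43.6) overlapped, and Gpt2 (4.53 to 6.21) was the lowest. On this scale Tat and Sds thus stood below Got2 in the controls and above it in the fusion embryos. The scale divides by merged exons, 4824 bases for Got2, 2405 for Tat and 1694 for Sds. In CPM without regard to length, Got2 (262 to 289) overlapped Tat (172 to 353) and Sds (120 to 269) in the fusion embryos. The step above Got2 therefore depends on the lengths used.

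Got1 and Got2 are also the aminotransferases of the malate-aspartate shuttle, which carries reducing equivalents of NADH into mitochondria. A list of 6 partner genes of this route and of mitochondrial glutamate transport was set beside them. Of these, 4 were higher and 0 lower, with a median log2 fold change of 0.85, and both the 4 and the 0 held in every fit that left out 1 embryo. Mdh1, the cytosolic malate dehydrogenase, was at 217, 302, 295, 336 and 308 CPM in control 1 to 5 and at 835, 769, 986 and 649 CPM in fusion 6 to 9 (log2 fold change 1.47 ± 0.17, SE; edgeR, adjusted p = 4.48e-04). Mdh2, its mitochondrial counterpart, rose from 213 ± 16.8 CPM (SD, n = 5) to 393 ± 60.1 CPM (SD, n = 4; edgeR, adjusted p = 0.00246).

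Among the carriers of that list, Slc25a11, which exchanges malate for oxoglutarate, rose by 0.81 ± 0.15 on the log2 scale (SE; edgeR, adjusted p = 0.00573). Slc25a22, a mitochondrial glutamate carrier outside the shuttle proper, was at 47.0, 43.8, 62.3, 51.8 and 47.4 CPM in control 1 to 5 and at 148, 152, 150 and 134 CPM in fusion 6 to 9. It rose 2.90-fold, and its fusion libraries lay closer together than those of Got1 or Tat (edgeR, adjusted p = 4.85e-05). The aspartate and glutamate carriers Slc25a12 and Slc25a13 had log2 fold changes of 0.29 and 0.21 and did not pass (edgeR, adjusted p = 0.0823 and 0.279).

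The 8 remaining lists held the other enzymes of amino acid breakdown, 64 tested genes in all. Of these, 17 were higher, 7 were lower and 40 did not pass, with a median log2 fold change of 0.18. The count of higher genes was 13 to 17 when each embryo was left out in turn, while that of lower genes fell to 2 to 5. For glutamate, glutamine, proline and arginine, 3 of 11 were higher and 2 lower (median 0.14). Gls2, the liver glutaminase, was the largest of these, rising 4.41-fold from 34.3 ± 12.4 CPM (SD, n = 5) to 152 ± 68.1 CPM (SD, n = 4; edgeR, adjusted p = 0.00254). Aldh4a1, which oxidizes the product of Oat to glutamate, rose by 0.65 ± 0.12 on the log2 scale (SE; edgeR, adjusted p = 0.00729). Glul, glutamine synthetase, fell by 0.50 on the log2 scale (edgeR, adjusted p = 0.0366), a call kept in 1 of 9 fits that each left out 1 embryo.

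For lysine 1 of 4 was higher (median 0.23). It was Aass, the first enzyme of lysine breakdown, at 24.2 to 50.3 CPM in the controls and 85.3 to 204 CPM in the fusion embryos (log2 fold change 2.02 ± 0.29, SE; edgeR, adjusted p = 0.00167). For histidine 2 of 4 were higher (median 0.49): Hal, which removes ammonia from histidine, rose 1.80-fold and Amdhd1 1.50-fold, although the groups overlapped for Hal and its call was lost without control 1 or without fusion 8. For the branched-chain amino acids 5 of 16 were higher and 0 lower (median 0.17), led by Ivd at 1.86-fold, Mccc1 at 1.64-fold and Dbt at 1.77-fold. The first 2 of these act on leucine.

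The tryptophan and kynurenine list, which Tdo2 would feed, had 0 of 9 higher and 3 lower (median -0.00). With the ribosomal protein split as a covariate 4 were higher and 3 lower, and within each of the library sets 2 were higher and 2 lower. Ccbl1, a kynurenine aminotransferase, fell by 0.53 on the log2 scale (edgeR, adjusted p = 0.00960) in every fit that left out 1 embryo. Kmo and Haao fell by 0.67 and 0.56 on the log2 scale (edgeR, adjusted p = 0.0285 and 0.0498), but their groups overlapped, and the calls held in 2 and 1 of those 9 fits. In the cysteine list 0 of 4 were higher and 1 was lower, Csad, which makes hypotaurine, at 0.474-fold (edgeR, adjusted p = 0.00682; list median -0.24). The 3 genes that supply the shared cofactor pyridoxal phosphate had a median of -0.03 and 0 passed.

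**Figure D3:**
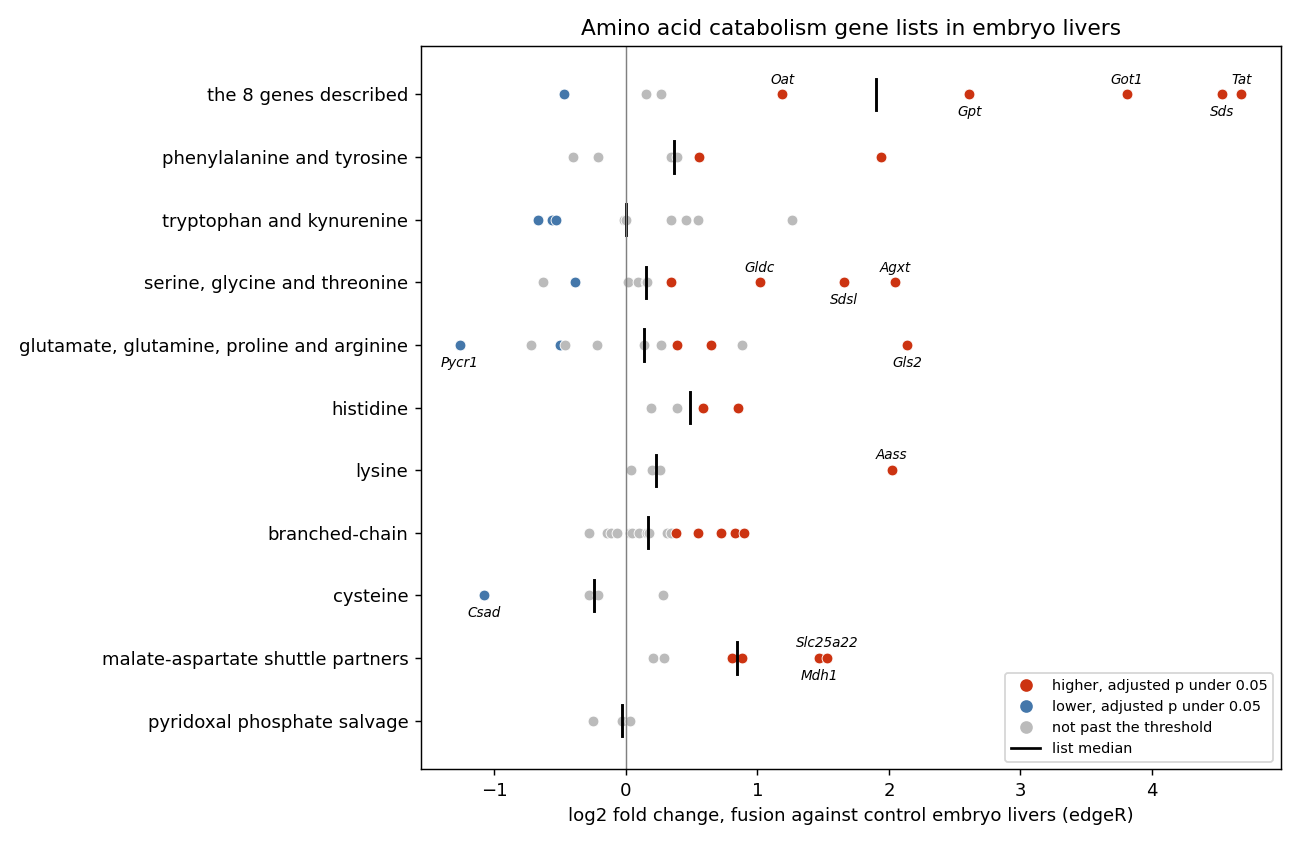
Log2 fold change of the tested genes of the enzyme, shuttle and cofactor lists (regulators, glucocorticoid-induced genes and cell markers are not plotted), fusion against control embryo livers, with 1 row per list, the list median as a black bar and colour for the edgeR call at an adjusted p of 0.05. Called genes with a change of at least 1 on the log2 scale are named, with 1 exception. Tat, Sds, Got1 and Gpt lie to the right of every gene in the other lists plotted.

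Of 11 transcription regulators linked to these enzymes in the liver, 2 were higher and 2 lower, with a median log2 fold change of 0.24. Ppargc1a, a coactivator of gluconeogenic genes that responds to cAMP, was at 7.85, 9.20, 6.63, 8.55 and 8.73 CPM in control 1 to 5 and at 77.7, 54.4, 72.4 and 42.2 CPM in fusion 6 to 9. It rose 7.57-fold without overlap, and fusion 9 was once more the lowest of its group (edgeR, adjusted p = 8.45e-06). Klf15, a factor known for its role in amino acid breakdown, rose 1.77-fold (edgeR, adjusted p = 0.00996). Foxa2 fell by 0.80 on the log2 scale (edgeR, adjusted p = 0.0189), a call lost without fusion 6 or without fusion 7. Cebpa, the other one lower, fell by 0.65 (edgeR, adjusted p = 0.0303), a call kept in 4 of 9 fits that each left out 1 embryo.

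A list of 6 glucocorticoid-induced genes had 2 higher, 1 lower and a median log2 fold change of -0.09. Fkbp5, a widely used marker of glucocorticoid receptor activity, fell by 0.68 (edgeR, adjusted p = 0.00252), from 101 ± 4.56 CPM (SD, n = 5) to 62.9 ± 5.64 CPM (SD, n = 4). Sgk1 rose 2.26-fold (edgeR, adjusted p = 0.00285) and Dusp1 1.57-fold (edgeR, adjusted p = 0.0216), the latter not without fusion 8. The list thus moved in both directions in the same livers in which Tat and Sds rose.

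Outside the genes described here, those whose profile over the 9 libraries was most like that of Tat were sought among 12543 candidates by the root mean square distance of log2(CPM + 0.1) values centred on the control mean. The 5 nearest were Pcdh20 (distance 0.34), Dapl1 (0.41), Lmod3 (0.61), Mettl7b (0.84) and Pck1 (0.85). Control means were 0.00941 CPM for Dapl1 and 0.0665 CPM for Lmod3, below the floor of 3 counts (0.130 to 0.392 CPM per control library), and 0.360 CPM for Pcdh20, within its range. The distances of these 3 from Tat are therefore partly set by the added 0.1, and they stood out only through the fusion libraries. Mettl7b, at 0.748 ± 0.532 CPM (SD, n = 5) in controls, also reached a mean of 1 CPM only through the fusion libraries. Mettl7b and Pck1 had log2 fold changes of 4.93 and 5.32, against 4.68 for Tat. Of the 5, Pck1, the first committed enzyme of gluconeogenesis, was the most abundant, at 25.8 ± 20.6 CPM (SD, n = 5) in controls and 1043 ± 394 CPM (SD, n = 4) in fusion embryos. Among the genes described here Sds was the nearest to Tat (0.58), then Got1 (0.79), and Got1 was nearest to Sds (0.53). The 5 nearest to Oat were Rnf24 (0.15), Aldh1b1 (0.16), Lap3 (0.17), Insc (0.17) and Sgk1 (0.17), with log2 fold changes of 1.12 to 1.23.

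Markers of other cells were read in the same fit. In the hepatocyte list 0 of 11 were higher and 1, Apoa1, was lower, with a median log2 fold change of -0.45. The call of Apoa1 held in 2 of the 9 fits that each left out 1 embryo. More of the 11 were lower elsewhere, 6 with DESeq2, 7 with the ribosomal protein split as a covariate and 5 within control 3 to 5 and fusion 6 and 7, and 0 were higher in any alternative. In the list of cholangiocyte and progenitor genes 3 of 5 were lower (5 of 5 with DESeq2) and 0 higher (Krt19, Krt7 and Epcam; median -1.31), and its summed level was 49.9 to 73.8 CPM in controls and 11.4 to 41.4 CPM in fusion embryos. In the fibroblast and stellate list 2 of 6, Col1a1 and Col1a2, were lower, with a summed level of 240 to 412 CPM in controls and 200 to 297 CPM in fusion embryos. The calls of Col1a1 and Col1a2 held in 6 and 2 of the 9 fits that each left out 1 embryo, and that of Epcam in 6. The erythroid, macrophage and endothelial lists had 0 of 6, 0 of 6 and 0 of 5 genes past the threshold in the main fit. Skeletal muscle, fat and skin lists had 0 of 3, 0 of 1 and 0 of 2. In the pancreas list the 1 gene tested was higher (log2 fold change 0.72), at 27.4 to 38.1 CPM in controls and 38.3 to 70.5 CPM in fusion embryos. With the ribosomal protein split as a covariate, endothelial Cdh5 and Kdr passed (edgeR, adjusted p = 0.00488 and 0.00311). So did macrophage Clec4f and C1qa (edgeR, adjusted p = 0.0343 and 0.0174). The log2 fold changes of these genes in the main fit were 0.43, 0.56, -0.31 and -0.34. The part of these differences in the rise of Tat, Sds, Got1, Gpt and Oat was not tested.

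The second comparison asked what palbociclib did to FL8 tumours. None of the 8 genes measured passed the test, limma on log2(CPM + 1) with Benjamini-Hochberg adjustment over 12829 genes, and 0 of all genes tested did (0%). All 8 log2 fold changes were positive, from 0.29 to 0.65, with a median of 0.42. The median over all genes tested was 0.14, and 68.8% of them were above 0. At an unadjusted p under 0.05 there was 1 of the 8, Gpt2, against 4.57% of all genes. On reads recovered from the CPM values, edgeR called 0 genes and DESeq2 called 8 (0.0468%), none of them among the genes described.

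Tat varied more between tumours than any change between groups. It was at 121, 550, 204, 263 and 36.5 CPM in vehicle 1 to 5 and at 233, 313, 196, 333 and 96.1 CPM in palbociclib 1 to 5. The vehicle group held both the highest and the lowest tumour. The means were 235 ± 196 and 234 ± 95.6 CPM (SD, n = 5 each), and the log2 fold change was 0.36 ± 0.53 (SE; limma, adjusted p = 0.961). Its sign turned to -0.19 without vehicle 5, the tumour with the fewest counts.

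Tdo2, tryptophan dioxygenase, lies at chr3:81957090-81976202 on the minus strand. It was at 98.5, 220, 269, 219 and 468 CPM in vehicle 1 to 5 and at 395, 210, 285, 321 and 220 CPM in palbociclib 1 to 5. Vehicle 1 was the lowest and vehicle 5 the highest of all 10, and the groups overlapped (log2 fold change 0.29 ± 0.34, SE; limma, adjusted p = 0.954). In vehicle 5 Tdo2 was thus at its highest and Tat at its lowest. Hpd was at 124, 194, 250, 197 and 115 CPM under vehicle and at 160, 250, 197, 318 and 190 CPM under palbociclib, also with overlap (limma, adjusted p = 0.953).

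Got1 was at 33.2, 81.1, 53.3, 74.5 and 41.6 CPM in vehicle 1 to 5 and at 68.7, 109, 69.3, 94.6 and 53.9 CPM in palbociclib 1 to 5. Got2 was at 154, 377, 331, 410 and 326 CPM in vehicle 1 to 5 and at 456, 435, 515, 411 and 421 CPM in palbociclib 1 to 5. Got1 overlapped between the groups. Got2 was the only one of the 8 genes that did not, by a margin of 411 against 410 CPM, a pattern held by 0.935% of all genes. Its log2 fold change was 0.55 ± 0.27 (SE; limma, adjusted p = 0.953), and without vehicle 1 it was 0.31.

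Gpt was at 37.6, 137, 157, 127 and 121 CPM in vehicle 1 to 5 and at 112, 207, 106, 226 and 126 CPM in palbociclib 1 to 5. Gpt2 was at 72.5, 216, 175, 210 and 117 CPM in vehicle 1 to 5 and at 287, 217, 229, 216 and 214 CPM in palbociclib 1 to 5. Vehicle 1 was the lowest of all 10 tumours for both, and palbociclib 1 was the highest for Gpt2. The log2 fold change of Gpt2 was 0.65 ± 0.29 (SE; limma, unadjusted p = 0.0373, adjusted p = 0.953). Oat was at 161, 251, 373, 394 and 266 CPM under vehicle and at 283, 385, 281, 371 and 454 CPM under palbociclib, with overlap (limma, adjusted p = 0.953).

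**Figure D4:**
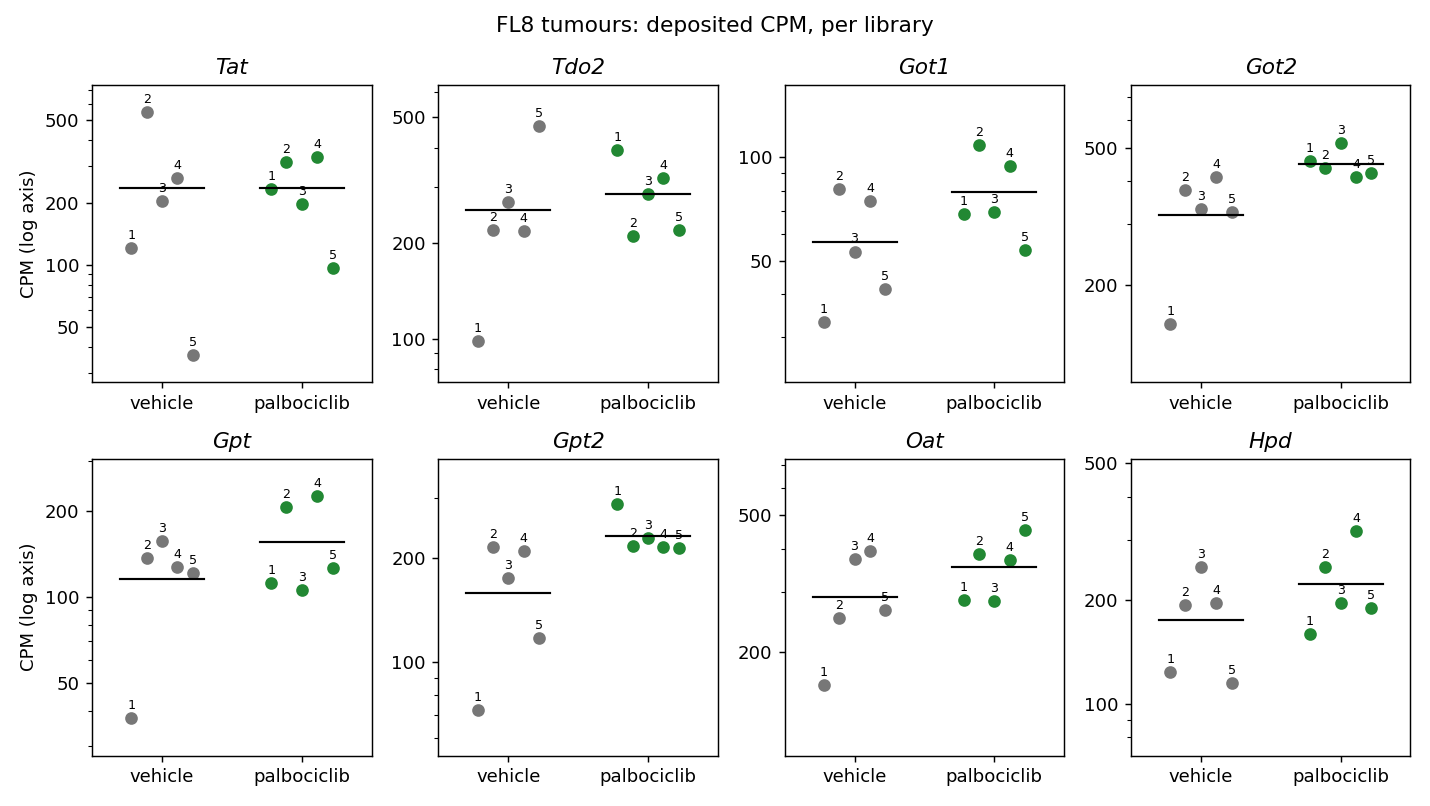
Level of each measured gene in the 5 vehicle and 5 palbociclib FL8 tumours, in deposited CPM on a log axis. Each point is 1 tumour with its number, and the black line is the group mean. Groups overlap for every gene but Got2, and vehicle 1 is the lowest vehicle tumour for 6 of the 8 genes.

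Vehicle 1 was the lowest vehicle tumour for 6 of the 8 genes, and vehicle 5 for Tat and Hpd. With CPM computed without mitochondrial genes, which took 46.6% of vehicle 1, the 8 log2 fold changes were 0.15 to 0.51. With vehicle 1 and vehicle 5 both left out they were -0.52 for Tat and 0.03 to 0.26 for the other 7. Blood and macrophage markers also differed between the tumours: the erythroid list summed to 1027 to 49092 CPM under vehicle and 1062 to 5501 CPM under palbociclib, and the macrophage list to 35.2 to 768 CPM and 37.4 to 101 CPM. Their part in the values of the 8 genes was not tested.

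The isoenzyme ratios did not separate the tumour groups. The log2 ratio of Got1 to Got2 was -2.22, -2.21, -2.63, -2.46 and -2.97 in vehicle 1 to 5 and -2.73, -1.99, -2.89, -2.12 and -2.96 in palbociclib 1 to 5. The difference was -0.04 (two-sided exact permutation test, p = 0.881, and 0.881 after adjustment). The log2 ratio of Gpt to Gpt2 was -0.49 ± 0.42 under vehicle and -0.65 ± 0.63 under palbociclib (SD, n = 5 each), a difference of -0.16 (two-sided exact permutation test, p = 0.611, and 0.815 after adjustment).

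Set side by side, with no test because the tables were normalized separately, the tumours did not show the Got1 to Got2 order of the fusion embryos. Got1 was at 0.127 to 0.251 times Got2 in the 10 tumours, at 0.279 to 0.332 times in control livers and at 2.97 to 5.22 times in fusion livers. Gpt was at 0.389 to 1.05 times Gpt2 in the tumours, 0.281 to 0.408 times in control livers and 1.78 to 4.19 times in fusion livers. Per kilobase of exon, mean Gpt was above mean Gpt2 in the tumours, as in fusion embryos, but the ranges overlapped. The means were 39.5 and 28.0 CPM under vehicle and 52.8 and 41.2 CPM under palbociclib. Per kilobase of exon, Tat was at 15.2 to 229 CPM over the 10 tumours, a range that held that of the fusion embryos (71.6 to 147) and lay above that of the controls (2.47 to 6.13). Oat, at 68.3 to 192 CPM per kilobase, was above both embryo groups in each of the 10 tumours. Ppargc1a, which rose with these genes in the embryos, was at 0.974 to 3.18 CPM in the tumours.

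The same lists were also read in the tumours. In the 8 lists of amino acid breakdown 0 of 64 genes passed the test, with a median log2 fold change of 0.35. The smallest unadjusted p of each list, none of which held after adjustment (limma, adjusted p = 0.953 for each), belonged to Pcca, Kmo, Gldc, Gstz1, Uroc1, Dhtkd1, Aldh4a1 and Cdo1. Kmo, lower in the fusion embryos, was at 27.2 ± 8.93 CPM under vehicle and 49.0 ± 10.9 CPM under palbociclib (SD, n = 5 each), and Pcca, a subunit of propionyl-CoA carboxylase, at 17.4 ± 5.10 and 30.8 ± 4.45 CPM. In the shuttle, cofactor, regulator and glucocorticoid lists 0 genes passed either, the smallest p being those of Slc25a13, Pdxk, Cebpb and Dusp1 (limma, adjusted p = 0.953 for each). The medians of these 4 lists were 0.26, 0.15, 0.10 and -0.10.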

How the data were processed

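RNA of 9 embryo livers and 10 tumours was analysed. The authors deposited embryo counts by gene symbol, which came from poly-A RNA and STAR 2.5.1b on mm10, per the submitters' processing notes. Tumour files hold CPM deposited by the authors, from cutadapt 2.10, HISAT2 and featureCounts on mm10, per the same notes. Whole reads were recovered from 100% of the tumour values (within 0.01 reads). The use of strand in counting is not given in the sources used here. The labels name a carrier for control tumours and the series text PBS; the labels were followed.

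For the embryos, edgeR 4.0.16 in R 4.3.3 was run on the counts (quasi-likelihood test, TMM factors, filterByExpr), which left 13316 genes. The tumour CPM values called for limma 3.58.1 instead, with a trend, on log2(CPM + 1) of the 12829 genes whose mean reached 1 CPM; this scale understates the change of low genes. The threshold was a Benjamini-Hochberg adjusted p of 0.05. Isoenzyme ratios were tested with exact permutation tests. Scripts were run on simulated data, where recovery of the changes put in was required of the embryo fit only.

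The 9 genes and all lists were chosen with earlier results of these data known. From each list up to 3 genes past the threshold with the smallest adjusted p were named, or else the one with the smallest p. Agxt2, Cebpa, Slc25a11, Slc25a12 and Slc25a13 were added outside that rule to complete small counts, after their values were seen, and 2 genes of the lists are counted but not reported here by name. Alternatives included RLE factors, DESeq2 1.42.0, no filter, pseudocount 0.1, voom weights, covariates for the ribosomal protein share and Xist, and each library left out. Coordinates are those of GENCODE M21 on mm10, and exon lengths are merged exons; promoters come from RefSeq (GRCm38.p6), which held 7 of the 9 genes. Equal replicate numbers of vehicle and palbociclib tumours did not pair them: same-numbered deviations correlated at -0.32 to 0.00. No 2 libraries of a group agreed within counting noise.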

Additional observations from a re-analysis of the deposited data

Results flagged for a closer look

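Of 40 groups of library values screened (each gene in each group, and the isoenzyme ratios), 4 had 1 library set far from the rest of its group. Chance alone gives about 1 in 20. Gpt in control embryo 4 was at 12.8 CPM, against 15.0 to 15.5 CPM in the other controls. Got2 in vehicle tumour 1 was at 154 CPM, against 326 to 410 CPM in the other vehicle tumours. Gpt in vehicle tumour 1 was at 37.6 CPM, against 121 to 157 CPM. Gpt2 in palbociclib tumour 1 was at 287 CPM, against 214 to 229 CPM in the other palbociclib tumours.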

How the results depend on the processing

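Tat, Sds, Got1, Gpt and Oat kept their direction and call in all 16 alternative embryo fits, and Got2 and Hpd were called in none. Gpt2 kept its direction in all 16 and its call in 8; its adjusted p was 0.0600 with Xist as a covariate and 0.107 within control 1 and 2 and fusion 8 and 9. The number of genes called was 1704, became 4345 with the ribosomal protein split as a covariate, 2589 within control 1 and 2 and fusion 8 and 9, 2950 within the remaining embryos, and 969 to 1581 when each embryo was left out, 969 without control 3, 987 without fusion 8 and 1107 without fusion 7. The cause was not tested, though the last have fewer samples. The embryo ratio differences stayed at 3.47 to 3.75 (Got1 to Got2) and 2.80 to 3.21 (Gpt to Gpt2) when each embryo was left out. List counts under the same alternatives were chosen after seeing the data: with the split as a covariate 26 of the 64 other breakdown genes were higher and 12 lower, and with Xist 13 and 2. In the tumours 0 of the 8 genes were called in any of 20 alternatives; DESeq2 on recovered reads called 8 genes in all. Tat turned to -0.03 under edgeR and -0.03 under DESeq2 on reads, -0.19 without vehicle 5 and -0.52 without vehicle 1 and vehicle 5, and Tdo2 to -0.00 without vehicle 1; with each tumour left out they ranged from -0.19 to 0.78 and from -0.00 to 0.55. With each tumour left out, the ratio differences ranged from -0.18 to 0.07 (Got1 to Got2) and from -0.34 to 0.02 (Gpt to Gpt2). With the replicate number as a block, 0 of the 8 genes and 0 of all genes were called, and the ratio differences were -0.04 and -0.16; no number correlated best with itself. The floor of 3 counts was at most 1.01 CPM (vehicle 5), below every value of the genes described.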
